A study of Homo sapiens with 6 samples.

Results

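The heat shock chaperones are proteins that fold newly made proteins, hold damaged ones in solution and help to dissolve aggregates. The set described here has 36 genes out of the 60325 gene rows of the deposited tables. They were chosen by name from a list, but with earlier results of these data known. All 36 had a value in all 6 libraries, above the required minimum of 4. They were sorted by textbook knowledge into 12 heat-inducible genes, 5 genes with high basal expression that are also targets of heat shock factor 1, 17 constitutive genes and 2 heat shock factors. The set is called cytosolic, but HSPA9, HSPD1, HSPE1 and DNAJA3 encode chaperones of mitochondria, and HSPB11 encodes a protein of the ciliary transport machinery that is not a classical small heat shock protein.

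The cells were THP-1, an established human monocytic leukaemia line, cultured as controls or with recombinant human IL-6, a cytokine of inflammation, and collected at 6, 24 or 48 h. Each of the 6 combinations of agent and time had 1 RNA-seq library, and the labels used here give neither the dose of IL-6 nor separate cultures. The aim stated for the series was to find which genes respond to IL-6 in a monocyte line, in work on lung monocytes in chronic obstructive pulmonary disease. All groups share the cell line, which is a leukaemia line grown in culture and not a blood or lung monocyte.

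Deposited values are on a log2 scale and were centred gene by gene, so a value of 0 is that gene's own mean over the libraries and a difference of 1 between libraries is a doubling. They do not show which gene is more abundant, and no such comparison is made. A value was listed for 22000 to 23108 genes per library, and the depth in reads is unknown. The median value of all genes tested ran from -0.05 in the control library of 6 h to 0.09 in that of 24 h. Of 10 markers of monocytes or of THP-1, all 10 had values in all 6 libraries. CD3E of T cells, MS4A1 of B cells, HBB, PF4 and PPBP of erythroid cells and platelets, and COL1A2 and CDH1 of fibroblasts and epithelium had no value in any library, while NKG7, CD79A, CD79B, KRT8 and KRT18 had values in all 6.

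In the heat shock response, unfolded proteins draw HSP70 and HSP90 away from heat shock factor 1, encoded by HSF1. The freed factor forms trimers, binds heat shock elements in promoters and starts transcription of the inducible chaperone genes. HSP70 proteins (HSPA genes) bind exposed peptide stretches in a cycle driven by ATP, J-domain proteins (DNAJ genes) deliver clients and start the cycle, and nucleotide exchange factors (HSPH1, HSPA4, HSPA4L and the BAG genes) end it. STIP1 passes clients from HSP70 to HSP90, and the chaperonins TRiC, in the cytosol, and HSPD1 with its lid HSPE1, in mitochondria, enclose them in a chamber.

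The letters of the heat shock element were searched in RefSeq promoter windows, which run from 250 bases before to 50 bases after a transcription start. The motif was GAA, 2 free bases, TTC, 2 free bases and GAA, on either strand (read on the other strand as TTC, 2 free bases, GAA, 2 free bases and TTC), and 32 of the 36 genes had an entry. It stood in a window of 8 of these 32 genes (25.0%), against 0.608% of 27305 genes with an entry. The 8 were HSPA6, HSP90AA1, DNAJA1 and CHORDC1 among the heat-inducible genes, HSPA8, HSP90AB1 and DNAJB6 among the constitutive genes, and HSPD1. A shorter motif, GAA and TTC in either order with 2 free bases between them, which every match of the longer one also contains, stood in 10 of 12 heat-inducible (83.3%) and 7 of 15 constitutive genes (46.7%), against 16.2% of all genes. A match describes the letters and does not show a bound site.

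The 250 bases before the start are printed for 6 genes, as examples of where the longer and the shorter motif stood. A link between the motif and the values in the libraries was not tested. Capitals mark the longer motif in the first 4 and the shorter motif in HSPA1A and HSPA1B. All are from build GRCh38.p14, read on the strand of the gene: HSPA6 at chr1:161524290-161524539, CHORDC1 at chr11:90223050-90223299, HSP90AA1 at chr14:102087045-102087294 (the one of its 2 listed starts that holds the motif), HSPA8 at chr11:123062137-123062386, HSPA1A at chr6:31815293-31815542 and HSPA1B at chr6:31827488-31827737.
HSPA6: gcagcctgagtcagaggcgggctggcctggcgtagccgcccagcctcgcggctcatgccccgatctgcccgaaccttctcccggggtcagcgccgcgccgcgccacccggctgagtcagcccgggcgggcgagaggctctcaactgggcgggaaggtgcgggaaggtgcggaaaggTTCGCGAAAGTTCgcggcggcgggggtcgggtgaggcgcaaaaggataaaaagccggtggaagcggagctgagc
CHORDC1: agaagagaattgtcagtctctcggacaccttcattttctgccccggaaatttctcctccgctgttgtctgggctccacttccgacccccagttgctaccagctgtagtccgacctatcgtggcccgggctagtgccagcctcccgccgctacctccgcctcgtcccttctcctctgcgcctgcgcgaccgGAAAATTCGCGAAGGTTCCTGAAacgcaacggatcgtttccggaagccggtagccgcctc
HSP90AA1: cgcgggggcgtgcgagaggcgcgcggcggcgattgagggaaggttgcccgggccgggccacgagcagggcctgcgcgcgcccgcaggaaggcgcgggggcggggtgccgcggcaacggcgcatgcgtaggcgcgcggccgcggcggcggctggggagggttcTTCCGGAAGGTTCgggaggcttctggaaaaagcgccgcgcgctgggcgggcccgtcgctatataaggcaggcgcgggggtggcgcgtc
HSPA8: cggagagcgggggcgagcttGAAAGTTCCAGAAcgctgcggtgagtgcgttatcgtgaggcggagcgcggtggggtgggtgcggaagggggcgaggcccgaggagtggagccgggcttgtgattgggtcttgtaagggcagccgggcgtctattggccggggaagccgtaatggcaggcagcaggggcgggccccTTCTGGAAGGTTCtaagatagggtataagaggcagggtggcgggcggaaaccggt
HSPA1A: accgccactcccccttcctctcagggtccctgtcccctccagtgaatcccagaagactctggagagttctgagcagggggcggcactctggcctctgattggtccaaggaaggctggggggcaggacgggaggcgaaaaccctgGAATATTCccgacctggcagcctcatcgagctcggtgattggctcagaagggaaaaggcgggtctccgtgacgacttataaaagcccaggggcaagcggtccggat
HSPA1B: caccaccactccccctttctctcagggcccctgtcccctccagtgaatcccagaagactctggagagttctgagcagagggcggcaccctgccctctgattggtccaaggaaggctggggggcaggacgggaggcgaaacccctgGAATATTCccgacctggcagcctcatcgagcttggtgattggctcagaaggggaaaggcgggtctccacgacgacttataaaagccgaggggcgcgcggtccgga

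In HSPA6 the motif began 74 bases before the start, and in HSP90AA1 88 bases before it. In CHORDC1 3 overlapping matches began 60, 55 and 50 bases before the start and join into 1 run of 23 bases. In HSPA8 2 separate matches began 230 and 55 bases before the start. HSPA1A and HSPA1B, neighbours on chromosome 6 that encode nearly the same HSP70 protein, had the same GAATATTC, and 235 of 250 bases were identical in an alignment of their upstream windows. The messenger RNAs of this pair are near copies as well, so reads can be shared between them and their values are not independent.

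IL-6 changed none of the chaperone genes past the threshold over the 3 time-matched pairs. Of the 35 genes tested (DNAJB2 was below the level filter), 0 had an adjusted p under 0.05 by limma, a linear model with shrunken variances adjusted over all genes by Benjamini-Hochberg, against 0.259% of the 13504 genes tested. At an unadjusted p under 0.05, 1 was higher and 2 were lower, against 3.72% and 5.26% of all genes. The median difference between IL-6 and control was 0.015 (log2) over the 35 genes and -0.034 over all genes tested. By class, the median was -0.030 for the 12 heat-inducible genes, 0.025 for the 16 constitutive genes tested and 0.112 for the 5 genes of high basal expression. No condition was repeated, so the spread behind these p-values is how far the IL-6 difference varied among the 3 times. A difference confined to 1 time, or of opposite sign at 2 times, widens that spread and can be missed. Values after ± are limma SEs of the difference being described, which is the IL-6 difference over 3 pairs unless a time step or an added term is named.

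The gene with the smallest unadjusted p was HSF2, which encodes heat shock factor 2, a partner of heat shock factor 1 active in development and stress. Its deposited values were 0.27, 0.46 and 0.04 in control at 6, 24 and 48 h and -0.20, -0.23 and -0.34 with IL-6, and values below are given in this order. All 3 IL-6 libraries lay below all 3 control libraries, which held for 5.70% of all genes tested. The difference was -0.51 ± 0.147, with an adjusted p of 0.304 from limma. HSF1, the master factor of the response, had values of -0.16, 0.14 and 0.15 in control and -0.07, -0.08 and 0.03 with IL-6, and the groups overlapped (-0.08 ± 0.129).

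HSPA9, the HSP70 protein of mitochondria that pulls in imported proteins, was the only one of the 35 whose 3 IL-6 libraries all lay above the 3 control libraries, as did 3.52% of all genes. Its values were -0.12, -0.16 and -0.15 in control and -0.03, 0.30 and 0.16 with IL-6. The difference of 0.28 ± 0.112 had an adjusted p of 0.473 from limma. A value higher with IL-6 at all 3 times was also found for HSPA14, a ribosome-associated HSP70, for BAG1, an HSP70 exchange factor, for PTGES3, the p23 co-chaperone of HSP90, and for FKBP4, an HSP90-bound peptidyl-prolyl isomerase, against 12.6% of all genes. STIP1 and HSF2 were lower at all 3 times, against 18.2% of all genes, and the sign was mixed in the other 28 genes.

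Among the heat-inducible HSP70 genes, the near copies HSPA1A and HSPA1B had similar values in each library. HSPA1A had values of -0.003, 0.20 and 0.18 in control and 0.27, -0.51 and -0.13 with IL-6. HSPA1B had values of -0.04, 0.16 and 0.08 in control and 0.26, -0.57 and 0.12 with IL-6. In both, the highest library was IL-6 at 6 h and the lowest was IL-6 at 24 h, and the controls lay between. The difference over the pairs was -0.25 ± 0.186 for HSPA1A (limma adjusted p = 0.762), and it was -0.02 without the 24 h pair and -0.51 without the 6 h pair. For HSPA1B it was -0.13 ± 0.196 (limma adjusted p = 0.898), and it was 0.17, of the opposite sign, without the 24 h pair, -0.35 without the 6 h pair and -0.21 without the 48 h pair.

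HSPA6 encodes HSP70B', an HSP70 made almost only under stress. Its values were -0.39, 0.19 and -1.03 in control and 0.18, -0.08 and 1.12 with IL-6. The library of IL-6 at 48 h was the highest and its control the lowest of the 6, with a difference of 2.15 (4.44-fold) between the pair. At 24 h the difference was -0.27. Over the 3 pairs it was 0.82 ± 0.460, with an adjusted p of 0.657 from limma. It was 0.15 without the 48 h pair and 1.36 without the 24 h pair. The recovered mean level of HSPA6 was 2.30 in an arbitrary unit, near the filter at 1. HSPA7, a near copy of HSPA6 that can share its reads, had values of 0.35, 0.83 and -2.43 in control and -0.62, 0.54 and 1.34 with IL-6. Its order within the pair was that of HSPA6 at 24 and 48 h and the opposite at 6 h. Its mean level of 0.425 lay below the filter.

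**Figure D1:**
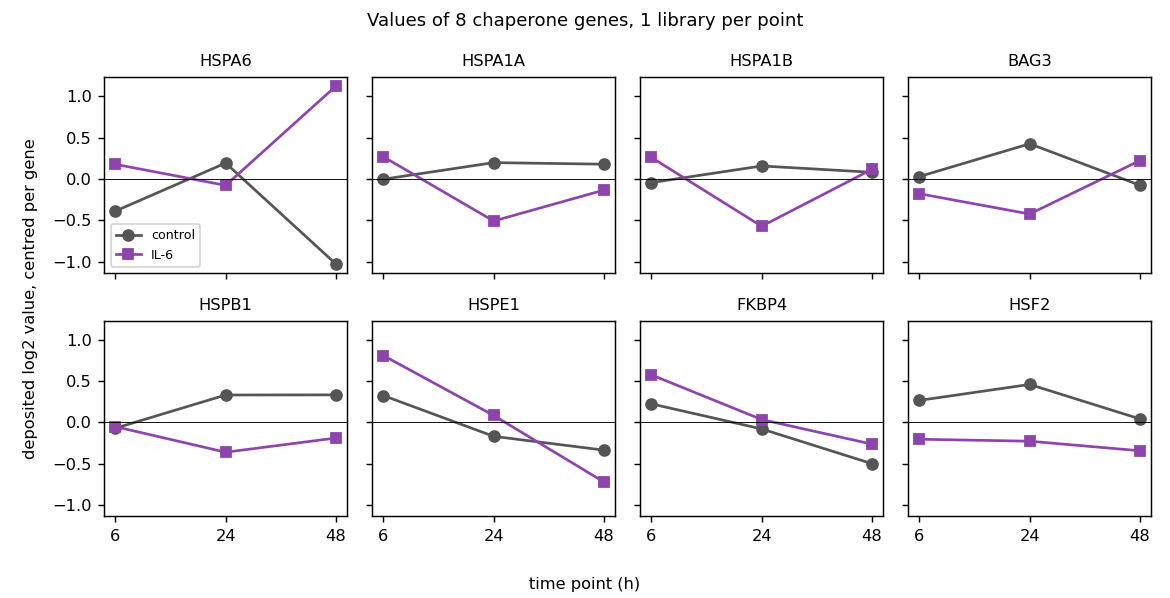
Deposited log2 values (y axis, centred per gene) against time in hours (x axis, evenly spaced categories) for 8 genes, with 1 library per point, circles for control and squares for IL-6. HSPA1A, HSPA1B, BAG3 and HSPB1 have their lowest point at IL-6 24 h, HSPA6 splits at 48 h with values of -1.03 and 1.12, HSPE1 and FKBP4 descend in both cultures, and the IL-6 points of HSF2 lie below all its control points.

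Among the other heat-inducible genes, 2 had the same lowest library as HSPA1A. HSPB1, the small heat shock protein HSP27 that holds unfolded clients, had values of -0.07, 0.33 and 0.33 in control and -0.05, -0.36 and -0.19 with IL-6. BAG3, a partner of HSP70 and of small heat shock proteins in selective autophagy, had values of 0.03, 0.43 and -0.08 in control and -0.18, -0.42 and 0.22 with IL-6. The lowest library of both genes was IL-6 at 24 h. The difference over the pairs was -0.40 ± 0.148 for HSPB1 (limma adjusted p = 0.436) and -0.25 ± 0.229 for BAG3 (limma adjusted p = 0.814). For HSPB1 it was -0.25 without the 24 h pair and -0.61 without the 6 h pair. IL-6 at 24 h was the lowest library for 6 of the 35 genes, those 2 and HSPA1A, HSPA1B, DNAJA3 and DNAJC7. This is close to the share of 16.7% over all genes.

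The inducible J-domain genes differed from one another. DNAJB1, the HSP40 that works with HSP70 on aggregates, had values of -0.002, 0.16 and -0.10 in control and 0.14, -0.08 and -0.12 with IL-6, the smallest range of the heat-inducible class. DNAJB4, a close relative of DNAJB1, had values of -0.36, 0.07 and 0.56 in control and 0.27, 0.09 and -0.62 with IL-6. Its control values were higher and its IL-6 values lower at each later time, and the differences of the pairs were 0.63, 0.02 and -1.18. DNAJB4, with a mean level of 4.80, overlaps a non-coding gene on the opposite strand. That gene had values in all 6 libraries, from -2.11 (control 6 h) to 1.07 (IL-6 24 h). The kit does not mark strand, so reads of the pair cannot be told apart. The same limit holds for other members that overlap a gene of the opposite strand, among them DNAJB1 (TECR) and BAG2 (RAB23). DNAJA1, a farnesylated J-domain protein, had values of 0.14, -0.08 and -0.09 in control and 0.26, 0.06 and -0.29 with IL-6.

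The remaining 4 heat-inducible genes were lower at 48 h than at 6 h in both cultures. HSP90AA1, the inducible form of cytosolic HSP90, had values of 0.23, -0.13 and -0.13 in control and 0.44, 0.06 and -0.47 with IL-6. HSPH1, the exchange factor HSP110, had values of 0.18, -0.03 and -0.16 in control and 0.35, 0.01 and -0.35 with IL-6. CHORDC1, a zinc-binding co-chaperone of HSP90, had values of 0.03, -0.27 and -0.16 in control and 0.63, -0.02 and -0.20 with IL-6. Its highest library, IL-6 at 6 h, stood 0.60 above its control. HSPA4L, a relative of HSPH1, had values of 0.29, 0.13 and -0.38 in control and 0.17, 0.31 and -0.52 with IL-6, so both values of 48 h lay below all others.

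**Figure D2:**
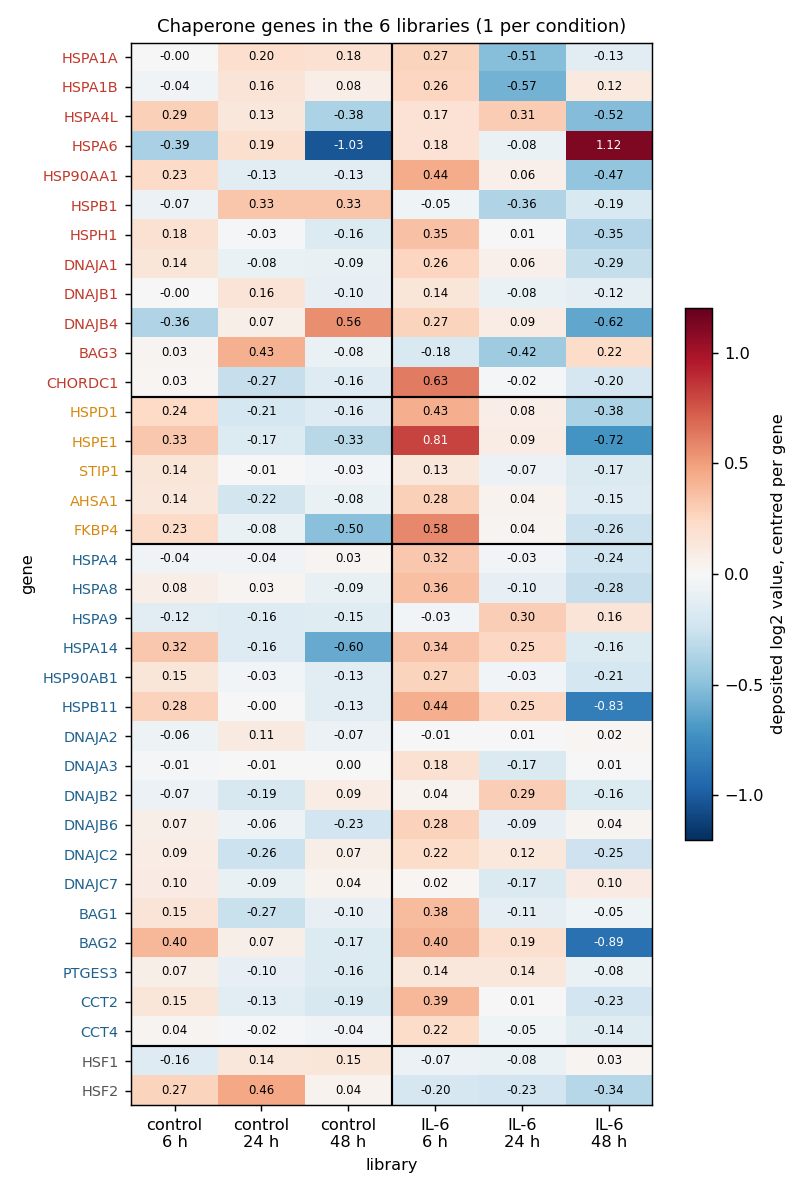
Deposited log2 value (colour and printed number, centred per gene) of the 36 genes in rows and the 6 libraries in columns, with lines between classes (heat-inducible, high basal, constitutive, heat shock factors, from the top) and between agents. Of the 35 genes tested, 29 were above 0 at IL-6 6 h and 24 at control 6 h, and 9 and 10 at IL-6 and control 48 h.

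At single time points there is 1 library a side and no test, so the classes are described only. At 6 h, 30 of the 35 genes were higher with IL-6 and 5 lower, against 47.7% of all genes lower, and the median difference was 0.157 against 0.018 over all genes tested. It was 0.192 for the heat-inducible and 0.142 for the constitutive genes. DNAJB4 and CHORDC1 were at least 1.5-fold higher, against 8.47% of all genes, and none was 1.5-fold lower, against 8.55%. At 24 h the heat-inducible genes ranged from -0.85 (BAG3) to 0.25 (CHORDC1), with a median of -0.105, and the constitutive genes from -0.16 to 0.45, with a median of 0.061, against -0.067 over all genes. HSPA1A, HSPA1B, HSPB1, BAG3 and HSF2 were at least 1.5-fold lower, and no constitutive gene was. These 5 of the 35 genes are close to the share of 12.8% over all genes. The median at 24 h was -0.69 with the inducible class limited to HSPA1A, HSPA1B, HSPA6, DNAJB1, HSPH1, BAG3 and HSPB1. These 7 genes were not a planned class, and they hold all 4 heat-inducible genes that were 1.5-fold lower. The genes left out were all above 0: CHORDC1 (0.25), HSP90AA1 (0.18), HSPA4L (0.18), DNAJA1 (0.14) and DNAJB4 (0.02).

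At 48 h the spread was widest. HSPA6 was 1.5-fold higher with IL-6, against 8.63% of all genes, and DNAJB4, HSPB11 and BAG2 were 1.5-fold lower, against 9.18%. The medians were -0.162 for the heat-inducible and -0.021 for the constitutive genes, against -0.041 over all genes. An added term for the IL-6 library of 6 h compared the early effect of IL-6 with the average of the later ones, leaving 1 residual degree of freedom. Of the 35 genes, 0 passed by limma, against 0.230% of all genes. HSPA1A alone had an unadjusted p under 0.05, with an early effect higher by 0.78 ± 0.374 (limma adjusted p = 1), against 2.04% of all genes higher.

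**Figure D3:**
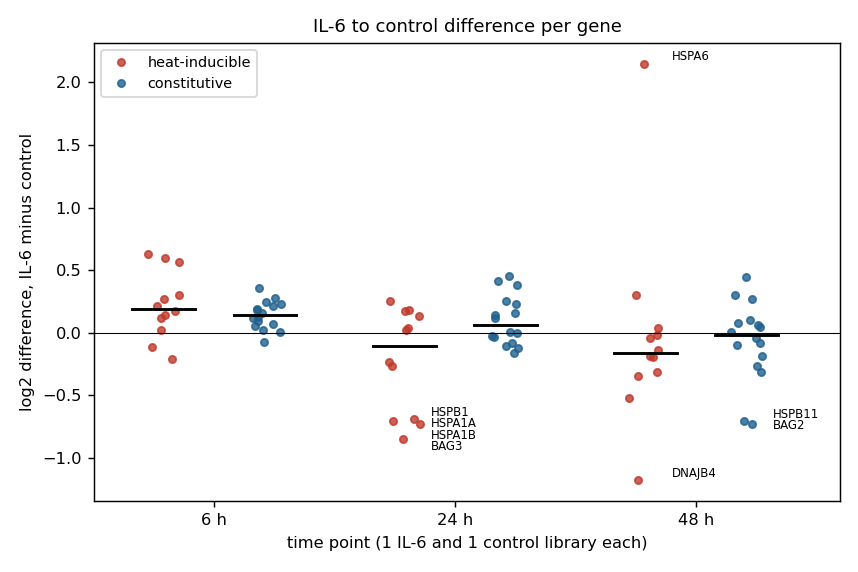
Log2 difference of IL-6 minus control (y axis) at 6, 24 and 48 h (x axis), 1 point per gene, for the 12 heat-inducible genes (red) and the 16 constitutive genes tested (blue), with class medians as bars. Each difference comes from 1 library a side. The 2 classes overlap at every time, and the points farthest from 0 are HSPA6 (2.15) and DNAJB4 (-1.18) at 48 h.

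Over culture time, chaperone genes that passed the test fell and none rose. From 6 to 48 h, with 1 control and 1 IL-6 library at each time, HSPE1 and FKBP4 fell past the threshold, which is 2 of 35 genes against 1.48% of all genes lower. None was higher, against 2.56%. No condition was repeated, so the spread behind these p-values is how far time differences varied between the control and IL-6 cultures. It does not measure variation between repeat cultures. In bulk RNA, fewer cells with a transcript and less of it per cell cannot be told apart. At an unadjusted p under 0.05, 16 were lower and 0 higher, against 8.32% and 13.3%. Estimates were below 0 for 27 of the 35 genes, against 42.9% of all genes. In 22 of the 35 genes both libraries of 48 h lay below both of 6 h, which held for 21.5% of all genes, and in 1 gene (HSF1) both lay above, against 31.5%. The median difference was -0.249 over the 35 genes and 0.072 over all genes.

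HSPE1, the lid of the mitochondrial chaperonin (ENSG00000115541.11, chromosome 2, 197500140 to 197503449 in the deposited tables, GRCh38), had values of 0.33, -0.17 and -0.33 in control and 0.81, 0.09 and -0.72 with IL-6. It was lower at each later time in both cultures. It fell by 1.09 ± 0.192 on the log2 scale (0.468-fold) from 6 to 48 h, with an adjusted p of 0.0178 from limma. The call was lost without the IL-6 library of 6 h (-0.82, adjusted p = 0.123) and without that of 48 h (-0.72, adjusted p = 0.0735), and without a variance trend (adjusted p = 0.237), under which no gene of all those tested passed. HSPE1 has a listed length of 700 bases, and the 1230 tested genes of up to 1000 bases had medians of -0.09 and -0.06 in control and 0.09 and -0.25 with IL-6 at 6 and 48 h. With the medians of such length classes set equal in every library, an alternative chosen after seeing the data, the fall was -0.94 (adjusted p = 0.00906). The readthrough gene HSPE1-MOB4, which shares exons with HSPE1, had values of -0.22, 0.10 and 0.24 in control and -0.01, -0.33 and 0.22 with IL-6, without that order. HSPE1 and HSPD1 overlap on opposite strands, so their reads cannot be told apart there.

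FKBP4 (ENSG00000004478.8, chromosome 12, 2794970 to 2805423) had values of 0.23, -0.08 and -0.50 in control and 0.58, 0.04 and -0.26 with IL-6. It was lower at each later time in both cultures, and both libraries of 48 h lay below both of 6 h. It fell by 0.78 ± 0.177 (0.582-fold), with an adjusted p of 0.0400 from limma. The call was lost when any 1 of the control or IL-6 libraries of 6 or 48 h was left out (adjusted p from 0.0805 without control 48 h and 0.109 without control 6 h to 0.226 without IL-6 48 h and 0.328 without IL-6 6 h, with differences from -0.87 to -0.69). It was also lost without a level filter (adjusted p = 0.0688), without a variance trend (0.222), with the non-robust fit (0.0594) and without the agent term (0.0803).

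Near these stood HSPD1, the chaperonin HSP60 and head-to-head neighbour of HSPE1 (-0.61 ± 0.152), and HSP90AA1 (-0.63 ± 0.159), each with a limma adjusted p of 0.0557. The exchange factors HSPH1 (-0.53 ± 0.137, adjusted p = 0.0620) and HSPA4L (-0.68 ± 0.180, adjusted p = 0.0658) followed. Among the constitutive genes the largest estimates were BAG2, an inhibitor of the ubiquitin ligase CHIP (-0.93 ± 0.273), HSPB11 (-0.84 ± 0.219), HSPA14 (-0.72 ± 0.195) and CCT2, a TRiC subunit (-0.48 ± 0.133), with limma adjusted p from 0.0707 to 0.0878. HSPB11, of 894 bases, belongs to the length class whose medians are given above. Several of these genes have processed pseudogenes, and reads that the authors' counting could split among such copies leave their values uncertain. HSP90AB1, the constitutive HSP90, was at -0.38 ± 0.129, and HSPA8, the constitutive HSC70, at -0.40 ± 0.148. Without the IL-6 library of 48 h the estimates were smaller by over 1.5 times for BAG2 (-0.53), HSPB11 (-0.38), HSPD1 (-0.37), HSP90AA1 (-0.36), CHORDC1 (-0.27), DNAJA1 (-0.23) and AHSA1 (-0.19). Without that of 6 h they were so for CHORDC1 (-0.26) and HSPA8 (-0.19). Without the control library of 48 h HSPB11 was at -1.29, and without that of 6 h HSPA8 was at -0.62.

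The classes were compared over time by their medians and counts alone, without a test between them. The median difference from 6 to 48 h was -0.145 in the heat-inducible class (5 of 12 lower at an unadjusted p under 0.05), -0.605 in the class of high basal expression (4 of 5) and -0.259 in the constitutive class (7 of 16). Over all genes tested the median was 0.072, and 8.32% were lower by the same rule. HSPA1A (-0.11 ± 0.228), HSPA1B (-0.01 ± 0.240), HSPA6 (0.15 ± 0.563), HSPB1 (0.13 ± 0.182), BAG3 (0.15 ± 0.281) and DNAJB4 (0.01 ± 0.413) had estimates smaller than their SEs. HSPA9, DNAJA2, DNAJA3 and DNAJC7, from -0.08 to 0.08, were the constitutive genes nearest to 0.

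**Figure D4:**
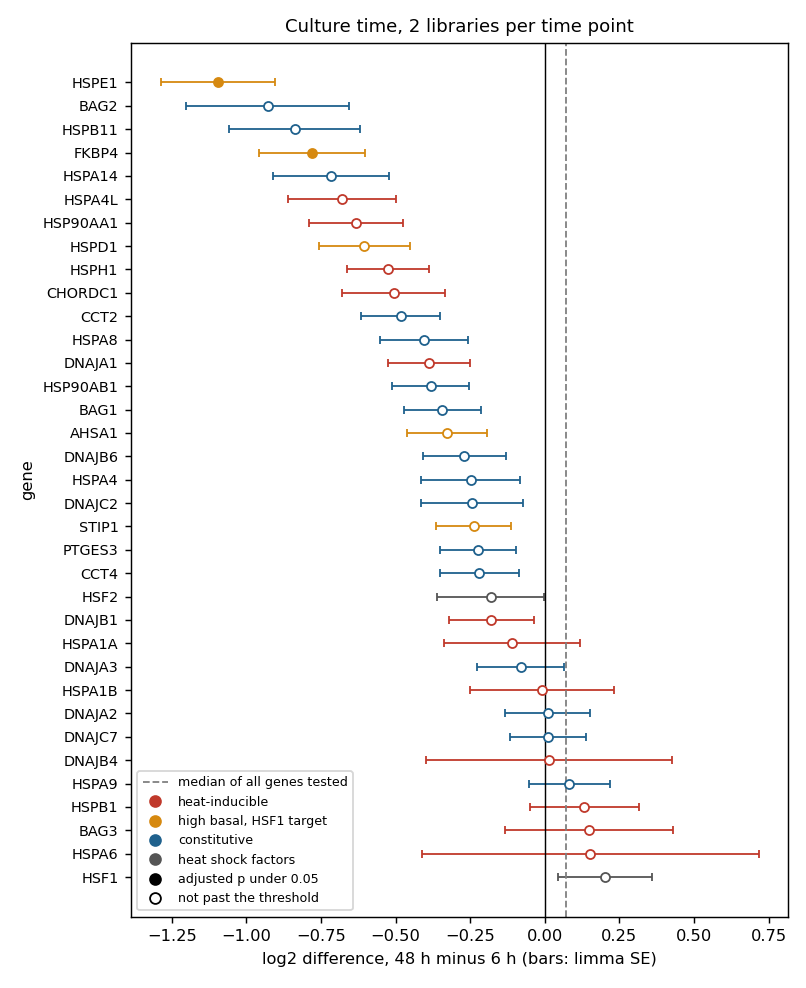
Log2 difference of 48 h minus 6 h (x axis) for the 35 genes tested (y axis, ordered by size), with limma SEs as bars, colours for the classes and filled points for an adjusted p under 0.05. The dashed line is the median of all genes tested (0.072). HSPE1 and FKBP4 are the filled points, and 27 of the 35 estimates are below 0.

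The lower values at 48 h were present in each culture taken alone. In control, 28 of the 35 genes were lower at 48 h than at 6 h, against 41.5% of all genes, with a median of -0.219 beside 0.087 over all genes tested. With IL-6, 29 were lower, against 46.3%, with a median of -0.437 beside 0.046 over all genes. The difference between the cultures was not tested as such. IL-6 at 6 h was the highest of the 6 libraries for 23 genes, against 17.2% of all genes, and IL-6 at 48 h the lowest for 17, against 20.9%. Values were lower at each later time in both cultures for 13 genes, against 5.27% of all genes. They were HSPA8, HSPA14, HSP90AB1, HSPB11, BAG2, PTGES3, CCT2 and CCT4 of the constitutive class, HSPE1, STIP1 and FKBP4 of the high basal class, and the heat-inducible HSPH1 and DNAJA1.

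The median difference was -0.222 over the first step, from 6 to 24 h, and -0.085 over the second, from 24 to 48 h. The first comparison shares the libraries of 6 h with that of 48 h against 6 h. From 6 to 24 h, 0 of 35 genes passed the adjusted threshold, against 0.289% of all genes lower and 1.65% higher. At an unadjusted p under 0.05, 8 were lower by limma, against 4.92%, and none was higher, against 12.7%. These were HSPE1 (-0.61), CHORDC1 (-0.47), BAG1 (-0.45), FKBP4 (-0.42), HSPD1 (-0.40), HSP90AA1 (-0.37), CCT2 (-0.33) and AHSA1 (-0.30), the last an activator of the HSP90 ATPase. All genes tested had a median of 0.107 over that step. Without the IL-6 library of 6 h the estimates were -0.33 for HSPE1, -0.23 for CHORDC1 and -0.22 for HSP90AA1, and without the control library of 24 h -0.25 for HSPD1, -0.24 for HSP90AA1 and -0.19 for AHSA1. Without the control library of 6 h that of CHORDC1 was -0.72. From 24 to 48 h, 0 passed, against 0.504% of all genes, and HSPA4L (-0.67), BAG2 (-0.66), HSPB11 (-0.61) and HSPE1 (-0.49) were lower at an unadjusted p under 0.05 by limma, against 7.69%, and none higher, against 4.09%. Without the control library of 48 h, which leaves 1 library at that time, the estimates were -0.86 for HSPE1, -1.06 for HSPB11 and -1.05 for BAG2. Without the IL-6 library of 48 h the estimates were -0.11 for HSPE1, -0.15 for HSPB11 and -0.26 for BAG2, and without that of 24 h -0.34 for HSPB11 and -0.42 for BAG2. With equal medians within the length classes they were -0.13 for HSPE1 and -0.25 for HSPB11.

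The range between the highest and the lowest library differed among the constitutive genes, from 0.187 to 1.29. HSPA4, an exchange factor, ran from -0.24 (IL-6 48 h) to 0.32 (IL-6 6 h), and DNAJB6, which suppresses aggregation of polyglutamine proteins, from -0.23 (control 48 h) to 0.28 (IL-6 6 h). DNAJA2 had the smallest range of all 36 genes, followed by DNAJC7, a J-domain protein that binds HSP70 and HSP90 (0.275), and DNAJB1 (0.275). DNAJC2, a ribosome-bound J-domain protein, ran from -0.26 (control 24 h) to 0.22 (IL-6 6 h). The widest ranges of the class were those of BAG2 (1.29) and HSPB11 (1.27), both from a high at IL-6 6 h to a low at IL-6 48 h, and of HSPA14 (0.949), from IL-6 6 h to control 48 h. DNAJB2, a neuronal J-domain gene with a mean level of 0.517, was not tested and ran from -0.19 to 0.29.

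Of 53 further genes of the chaperone network, listed by function, 48 were tested and none passed for IL-6. From 6 to 48 h, 1 fell and 2 rose past the threshold, near the shares of 1.48% and 2.56% over all genes, with a median of -0.073. CACYBP, a co-chaperone linked to HSP90 and ubiquitin ligases, fell by 0.67 ± 0.129 (limma adjusted p = 0.0215), from 0.27 and 0.46 at 6 h (control, then IL-6) to -0.29 and -0.32 at 48 h. LONP1, the mitochondrial protease, rose by 0.66 ± 0.135 (limma adjusted p = 0.0268), and HSPB7, a small heat shock protein of muscle, by 1.63 ± 0.350 (limma adjusted p = 0.0337). The other 6 TRiC subunits had a median of -0.225, and 5 of the 6 estimates were below 0, against 42.9% of all genes. These calls were not recomputed with libraries left out.

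Other protein-folding and stress lists moved over the same time as follows. Of 10 chaperone genes of the endoplasmic reticulum, HSP90B1, DNAJB11, CALR and SDF2L1 fell from 6 to 48 h, against 1.48% of all genes, and the median was -0.385. Of 34 proteasome subunit genes 0 passed by limma, 10 were lower and 1 higher at an unadjusted p under 0.05, against 8.32% and 13.3% of all genes, and the median was -0.166. Of 7 immediate early genes tested, IER2 and ZFP36 rose, against 2.56% of all genes, with a median of 0.736. Of 10 housekeeping genes 0 passed by limma, 1 was lower and 1 higher at an unadjusted p under 0.05, and the median was -0.058. Of the marker lists, NKG7, a cytotoxic granule gene, was higher by 0.91 at 24 h and 1.01 at 48 h than at 6 h. Both differences passed, against 1.65% and 2.56% of all genes higher. Of the 10 monocyte or THP-1 genes LYZ fell from 6 to 48 h, against 1.48% of all genes lower. In that list 6 of the 10 estimates were above 0, and the median was 0.329. At an unadjusted p under 0.05 by limma, 4 were higher and 1 lower, against 13.3% and 8.32% of all genes. Their part in the values of the heat shock genes was not tested.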

How the data were processed

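RNA was amplified with the SMART-Seq v4 low-input kit and tagged with Nextera XT, per the labels' protocols, and the genome was GRCh38 (hg38), per the submitters' processing notes. Nothing further is known of the aligner, the counter and the normalization, which were not given in the sources used here. The authors deposited 1 log2 value per gene and library, titled a processed signal per the file headers, and centred on each gene to within 1.8e-07.

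After removal of 1 offset per library, the values of a gene stood in whole-number ratios, from which a level in an arbitrary unit (step 0.001, up to 100) was recovered for 89.3% of the 17388 genes with 6 values. The 1854 genes without one, HSPE1 and HSPD1 among them, were treated as high, at a set level of 100 in the variance trend. They kept their deposited values in the alternative with a pseudocount. Whether levels are per gene length is not shown, so they filter genes, set the variance trend and enter the alternative with a pseudocount, and are printed only to place a gene against the filter.

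The deposited log2 values were fitted with limma 3.58.1 in R 4.3.3, with agent and time point as terms and all 6 libraries, on the 13504 genes that had 6 values and whose mean level was 1 or more. Robust empirical Bayes used a trend on level (2 residual and a median of 8.14 prior degrees of freedom), with Benjamini-Hochberg adjustment and a threshold of 0.05. The script was tested on simulated data. All 36 genes were to be named, with values per library for heat-inducible genes and for genes past the threshold; HSF1, HSF2 and HSPA9 were added after their values were seen. The genes and all lists were chosen with earlier results of these data known. Alternatives covered the level filter, variance trend, robust fit, library scaling, a pseudocount, model terms and left-out libraries. Some marker genes are not reported here.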

Additional observations from a re-analysis of the deposited data

How the results depend on the processing

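No chaperone gene passed for IL-6 under any alternative run, including the fit without the time term, that is without the replicate block by time point (0 of 35). Over all genes tested the number was 35 as reported and 4 without the time term. It ran from 0 without a variance trend to 117 of 13504 without the 6 h pair. A count of 0 among 35 genes is near these shares. The estimate of HSPA1B over the pairs (-0.13) ranged from -0.35 to 0.17 with 1 pair left out, and was 0.17 without the 24 h pair. The number of chaperone genes lower from 6 to 48 h was 2 as reported. It was 1 without a level filter, 7 with a mean level of at least 5 and 0 without a variance trend. It was 1 with the non-robust fit, 6 with equal library medians and 8 with equal medians within gene-length classes. On log2(level + 1) it was 4, of which HSP90AA1, HSPD1 and HSPE1, without a recovered level, kept their deposited values. That alternative is no check on the values of these genes. Without the agent term the number was 1. Leaving out 1 library at a time gave 0 to 8: 0 without IL-6 6 h or IL-6 48 h, 1 without control 6 h and 8 without control 48 h. The count over all genes tested, 546 as reported, was then 192, 110, 438 and 1146 in the order just given, and from 0 (no variance trend) to 755 (mean level of at least 5) under the other alternatives. These counts over all genes take either direction, and the 546 were 346 higher and 200 lower. They were not split by direction under the alternatives. All the chaperone genes counted had estimates below 0. From 6 to 24 h the count was 0, or 1 (HSPE1) with equal medians within gene-length classes. From 24 to 48 h it was 0 with all libraries kept, and estimates that moved with 1 library left out are given above. The median IL-6 difference of the heat-inducible class at 24 h was -0.105. It was -0.69 with the class limited to 7 genes, an unplanned list that leaves out only genes above 0 at that time. Causes of these changes were not tested. The tables hold no counts, so the limits set by depth are unknown.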
